A study of Neurospora crassa with 12 samples.

Results

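In mycelium of the filamentous fungus Neurospora crassa, 65 genes that were near-silent in the wild type had raised transcript levels in every library of both heterochromatin mutants. They were chosen from 9730 counted genes by their measured levels. A level is given in CPM, which relates a gene's reads to all reads counted in genes of its library. A gene was a member when its WT mean was under 1 CPM, when its mean in each mutant was at least 3 times the WT mean and at least 0.5 CPM, and when each of the 8 mutant libraries stood above each of the 4 WT libraries. The members made up 0.668% of the counted genes and 3.66% of the 1775 genes with a WT mean under 1 CPM. Levels of the members in either mutant against WT are therefore descriptions and carry no test, and the transcript counts hold no measure of chromatin at these genes.

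The 12 libraries came from 3 strains with 4 libraries each. Strain N3944 carries a dim-5 deletion marked with bar+ (Δdim-5::bar+, mat x). Strain NKL2, of mating type A, lacks the region named LGIIK9het25, which was replaced with hph (ΔLGIIK9het25::hph). Strain N150, also mat A, is the wild type (WT). All were grown alike, for 16 h at 32 °C in Vogel's medium holding 1.5% sucrose, and polyadenylated RNA of the mycelium was sequenced in single reads. The labels do not say whether the libraries of a strain came from separate cultures, so p-values measure the spread between these libraries, which may be technical. Both mutants are compared with the same 4 WT libraries.

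DIM-5 is the histone methyltransferase that places the H3K9me3 mark of constitutive heterochromatin in Neurospora. The mark is bound by HP1, which brings in the DNA methyltransferase DIM-2, and both are found mainly over AT-rich, repeat-derived DNA that holds few genes. Many silent genes of this fungus lie instead in facultative heterochromatin marked by H3K27me3, which the Polycomb complex places and which is known to be redistributed when H3K9me3 is lost.

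Reads counted in genes ranged from 10920478 to 23925695 in Δdim-5 libraries, from 8518301 to 16039760 in ΔLGIIK9het25 libraries and from 7164944 to 12423603 in WT libraries. The dim-5 gene had 0, 0, 1 and 2 counts in the Δdim-5 libraries, against 71 to 104 in ΔLGIIK9het25 and 50 to 109 in WT. Which genes the deleted region of ΔLGIIK9het25 held is not given in the sources used here, so that deletion was not checked in the counts. ΔLGIIK9het25 replicate 2 and WT replicate 2 stood apart in the share of reads that fell outside counted genes, with 31.8% and 36.8%, while the other libraries had 3.62% to 18.5%. Calls between the mutants are given below with and without these libraries. Genes of vegetative hyphae, the labelled tissue, were expressed in every strain, and the 6 genes of that list had summed levels of 21119 to 30215 CPM in Δdim-5, 26247 to 29171 CPM in ΔLGIIK9het25 and 24391 to 29076 CPM in WT.

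Summed over the 65 members, the level was 223, 289, 187 and 246 CPM in the 4 Δdim-5 libraries and 356, 399, 358 and 354 CPM in the 4 ΔLGIIK9het25 libraries, against 26.8, 15.8, 22.6 and 22.0 CPM in the 4 WT libraries. The rule itself puts every mutant sum above every WT sum. The sums of the mutants did not overlap each other, and ΔLGIIK9het25 had the higher ones. A few genes carried much of it. NCU09603, NCU06792, NCU08570, NCU03121 and NCU07789 gave 33.2% of the summed CPM in Δdim-5, and NCU09147, NCU07433, NCU00118, NCU04547 and NCU02593 gave 46.2% of it in ΔLGIIK9het25. The top genes of the mutants were thus 5 different genes in each. In bulk RNA, more nuclei or cells that express a gene and more RNA per cell cannot be told apart.

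**Figure D1:**
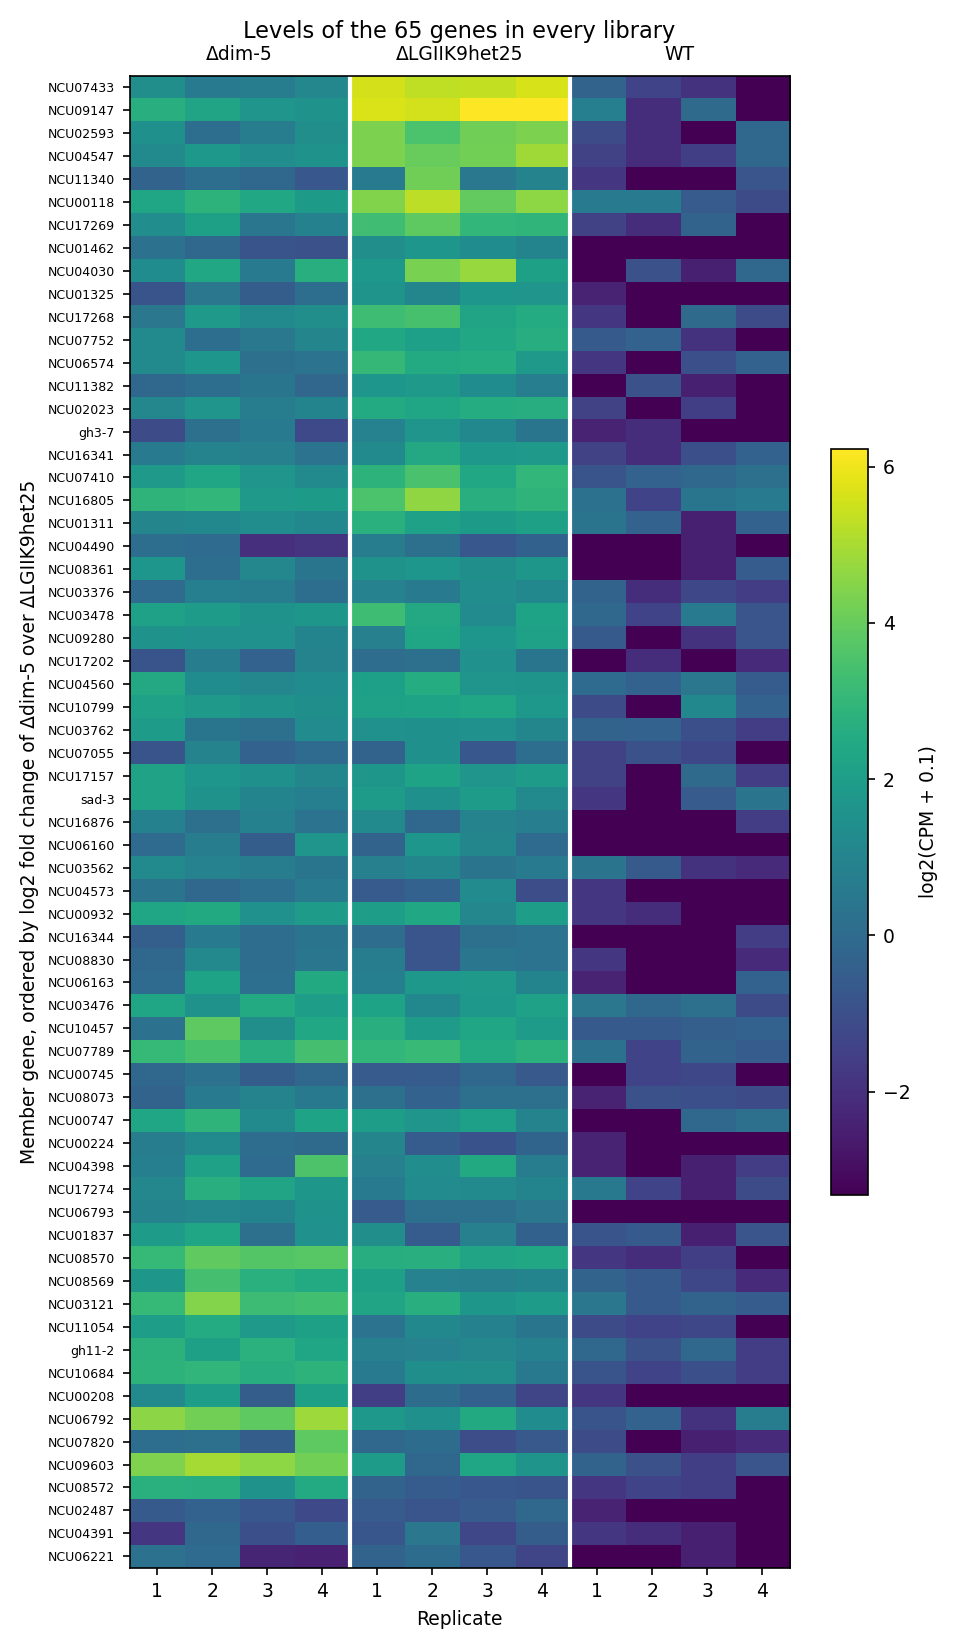
Level of each of the 65 members in each of the 12 libraries, as log2(CPM + 0.1), with Δdim-5, ΔLGIIK9het25 and WT from left to right and members ordered by the log2 fold change of Δdim-5 over ΔLGIIK9het25; the 3 members that the count filter removed stand at the bottom. The rule makes every mutant column lighter than every WT column in each row. The rows at the top and those just above the 3 removed members show the members whose level differed most between the mutants.

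The typical member was low in WT and modest in the mutants. The median over members of the strain mean was 2.42 CPM in Δdim-5 (range 0.515 to 23.5) and 2.82 CPM in ΔLGIIK9het25 (range 0.543 to 61.8), against 0.317 CPM in WT (highest 0.999). In Δdim-5, 54 members reached a mean of 1 CPM and 12 reached 5 CPM. In ΔLGIIK9het25, 52 reached 1 CPM and 17 reached 5 CPM. WT levels rested on few reads, since a member had 0 to 41 counts over the 4 WT libraries, with a median of 12. NCU06793, NCU01462 and NCU06160 had no WT count, and 11 other members had 1 or 2. With WT means under 3 counts set to that floor, 0.0768 CPM over the 4 libraries, the median ratio to WT was 8.73 in Δdim-5 (range 3.22 to 88.0) and 10.7 in ΔLGIIK9het25 (range 3.06 to 155). A ratio of 10 or more was reached by 28 members in Δdim-5 and 35 in ΔLGIIK9het25.

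The conditions on level and fold were met by 309 near-silent genes in Δdim-5, by 261 in ΔLGIIK9het25 and by 121 in both. Adding the condition that libraries do not overlap left 178 genes in Δdim-5 and 194 in ΔLGIIK9het25, of which the 65 members are 36.5% and 33.5%. Among the genes that passed a filter on low counts, 9.07% had every Δdim-5 library above every WT library and 6.19% every ΔLGIIK9het25 library above every WT library. In the fit across these 8496 genes, edgeR's quasi-likelihood test with Benjamini-Hochberg adjustment over all of them called 59 of the 62 members in the fit higher in Δdim-5 than in WT and 52 higher in ΔLGIIK9het25 than in WT. Of all genes in the fit, 9% were called higher in Δdim-5 and 3.08% in ΔLGIIK9het25. Since the rule chose the members on this contrast, nothing is read from their counts. With the strains exchanged, the same rule found 27 genes that were near-silent in Δdim-5 and raised in the other strains, and 5 that were near-silent in ΔLGIIK9het25. The deleted dim-5 gene meets the first of these, with means of 0.0335 CPM in Δdim-5, 7.38 CPM in ΔLGIIK9het25 and 7.43 CPM in WT. Whether genes of the deleted region are among the 5 is not known here.

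The thresholds cut through a continuum. Just inside the WT limit, NCU16805 had a WT mean of 0.999 CPM, and just outside it NCU03484 had 1.01 CPM. Just inside the fold limit, NCU08073 had a lower mutant mean of 3.06 times WT, and just outside it NCU09379 had 2.84 times. Just inside the level limit, NCU04391 had 0.515 CPM in its lower mutant, and just outside it NCU01076 had 0.495 CPM. For NCU03562, the lowest mutant library had 1.005 times the CPM of the highest WT library, the narrowest gap among the members.

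The rule was also applied with each library left out in turn, where the libraries that remained chose the genes. Without 1 mutant library, 64 to 75 genes were found, and the library left out then stood above every WT library for 92.8% to 94.3% of them. Δdim-5 replicate 1 was the exception, where 62 of 75 genes, 82.7%, stood above every WT library. When 1 WT library was left out, 70 to 88 genes were found, and that library stood below every mutant library for 73.9% to 88.6% of them. The larger numbers of 88 were found without WT replicate 1 and without WT replicate 3. Those 2 settings held 64 and 60 of the 65 members. The left-out library was set against libraries that had themselves chosen the genes, so high shares follow in part from the rule. Such shares were not computed over all genes, and they are a description rather than an independent check.

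Few members have a gene name. All 65 were found in the RefSeq gene table, but 3 of them, 4.62%, have a symbol of their own there, against 2.63% of the other near-silent genes and 11.5% of all counted genes. The gene sad-3 (NCU09211) encodes a helicase-like protein of meiotic silencing by unpaired DNA, a pathway of the sexual cycle. It had 4.40, 2.82, 1.87 and 1.63 CPM in Δdim-5 and 3.74, 2.70, 3.80 and 2.26 CPM in ΔLGIIK9het25, against 0.181, 0, 0.563 and 1.18 CPM in WT. The mutants overlapped and the nearest WT library, replicate 4, came close to them. The difference between the mutants was -0.14 on the log2 scale (SE 0.554), which edgeR's quasi-likelihood test did not call (adjusted p = 0.892).

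The other members with a symbol belong to glycoside hydrolase families, many of whose enzymes break down plant cell wall polysaccharides. The gene gh3-7 (NCU09923) had 0.366, 1.06, 1.41 and 0.334 CPM in Δdim-5 and 1.79, 3.05, 2.12 and 1.21 CPM in ΔLGIIK9het25, against 0.0907, 0.140, 0 and 0 CPM in WT, where it had 2 counts. The mutants overlapped by a single Δdim-5 library, and the log2 fold change of -1.23 (SE 0.553) between them was not called (adjusted p = 0.152, edgeR's quasi-likelihood test). The gene gh11-2 (NCU07225), of a xylanase family, had 6.87, 4.15, 6.76 and 4.97 CPM in Δdim-5 and 1.71, 1.76, 2.06 and 1.74 CPM in ΔLGIIK9het25, against 0.816, 0.419, 0.805 and 0.237 CPM in WT. Its mutants did not overlap, and it was higher in Δdim-5 than in ΔLGIIK9het25 by 1.73 on the log2 scale (SE 0.331, adjusted p = 0.00304, edgeR's quasi-likelihood test). No other member is described here by function, since the files and the gene table give none.

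Some members had large ratios to WT in both mutants. NCU00932 had 4.94, 5.49, 2.72 and 3.68 CPM in Δdim-5 and 3.99, 5.17, 2.06 and 4.00 CPM in ΔLGIIK9het25, against 3 counts in all of WT. Its pooled counts gave a ratio to WT of 51.8 in Δdim-5 (95% interval 17.5 to 253, exact, counting error alone) and of 46.5 in ΔLGIIK9het25 (15.7 to 228). These intervals carry no test, since the rule chose the gene on these levels and it is named here for its large ratio. NCU08570 had 8.42, 14.8, 12.8 and 13.5 CPM in Δdim-5 and 6.10, 6.34, 4.68 and 5.13 CPM in ΔLGIIK9het25, against 0.181, 0.140, 0.241 and 0 CPM in WT, so that its mean was 88.0 times the WT mean in Δdim-5 and 39.6 times in ΔLGIIK9het25. Both genes stood far from WT in every mutant library. NCU06160, with no WT count, had 0.916, 1.55, 0.605 and 3.09 CPM in Δdim-5 and 0.732, 3.17, 2.00 and 0.905 CPM in ΔLGIIK9het25, so that its mutants overlapped. NCU04398 was 45.6 times its WT mean in Δdim-5 and 27.2 times in ΔLGIIK9het25, where WT had 4 counts, but it spread widely within each mutant, at 0.908 to 11.7 CPM in Δdim-5 and 1.51 to 5.42 CPM in ΔLGIIK9het25. At the other end, the lower of the mutant ratios was 3.06 for NCU08073, 3.14 for NCU03562, 3.19 for gh11-2, 3.22 for NCU01311 and 3.23 for NCU08572.

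The rule asks for a rise in both mutants and does not use the difference between them, so Δdim-5 against ΔLGIIK9het25 can be tested on the members. It does use the level of every mutant library, which bears on how readily a member is called. Of the 62 members in the fit, 10 were higher in Δdim-5, 12 were lower and 40 were not called, by edgeR's quasi-likelihood test with Benjamini-Hochberg adjustment over 8496 genes. The low-count filter removed NCU02487, NCU04391 and NCU06221. The calls are 16.1% higher and 19.4% lower among the members, where all genes in the fit had 8.83% higher and 7.92% lower, and the 481 other near-silent genes in the fit had 13.9% and 10.6%. These are not like sets, since the rule asks members to be raised in both mutants. Other near-silent genes can pass the count filter through a single strain where they are high. No excess of calls is read from the shares. Over all genes the split was 750 higher and 673 lower, and it turned to 586 higher and 788 lower when library totals were used without TMM factors. The median log2 fold change of the members was -0.15, against 0.02 for all genes, while the median size of the change was 1.10 for the members and 0.32 for all genes. Higher and lower calls were thus near each other in number, and the mean was higher in Δdim-5 for 28 of the 65 and higher in ΔLGIIK9het25 for 37.

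By the libraries themselves, all 4 Δdim-5 libraries stood above all 4 ΔLGIIK9het25 libraries for 9 members and below them for 17, and the mutants overlapped for 39. Among all genes in the fit, 8.26% stood above and 13.2% below. Without ΔLGIIK9het25 replicate 4, 13 members were called in place of 22, and without Δdim-5 replicate 4, 14 were. The 12 calls of lower genes became 6 without ΔLGIIK9het25 replicate 4, without Δdim-5 replicate 3 or without Δdim-5 replicate 4. Without ΔLGIIK9het25 replicate 2, which had many reads outside genes, 18 members were called, and without WT replicate 2, 24 were.

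**Figure D2:**
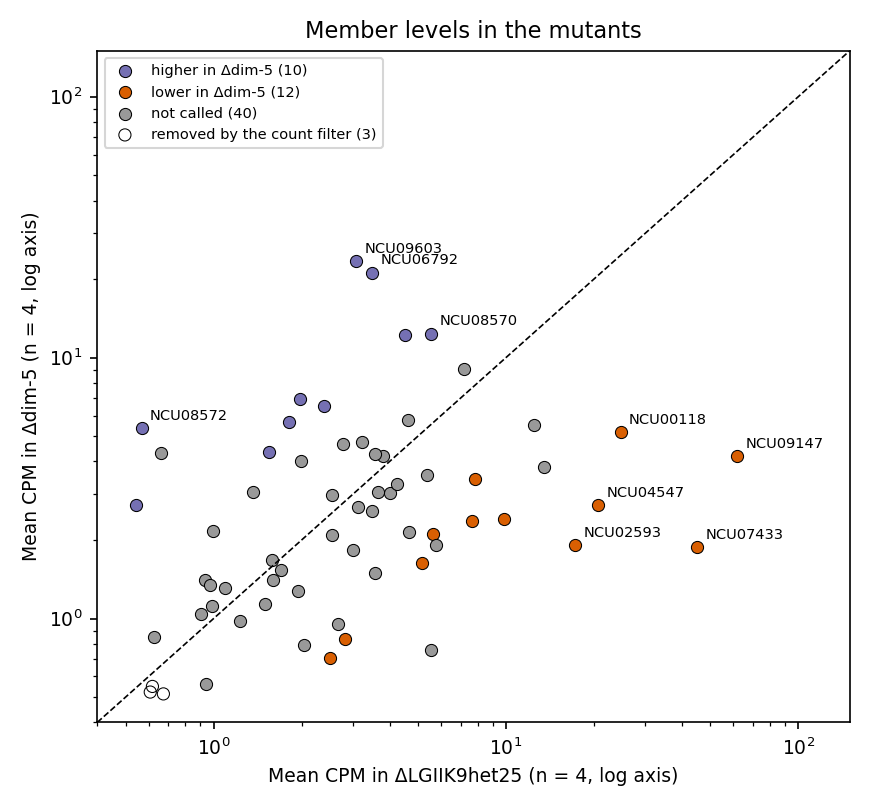
Mean CPM of each member in Δdim-5 (vertical, log axis, n = 4) against its mean CPM in ΔLGIIK9het25 (horizontal, log axis, n = 4), coloured by the call of edgeR's quasi-likelihood test between the mutants, with a dashed line of equal levels. The 10 members called higher in Δdim-5 lie above the line, the 12 called lower lie below it, and most of the 40 members not called lie near it.

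The strongest falls in Δdim-5 relative to ΔLGIIK9het25 were those of NCU07433, NCU09147, NCU02593 and NCU04547. NCU07433 had 2.56, 1.41, 1.51 and 2.05 CPM in Δdim-5 and 49.3, 40.0, 40.6 and 50.6 CPM in ΔLGIIK9het25, against 0.725, 0.279, 0.161 and 0 CPM in WT. Its ratio to WT was 6.46 in Δdim-5 and 155 in ΔLGIIK9het25. The mutants differed by -4.51 on the log2 scale (SE 0.379, adjusted p = 4.28e-06, edgeR's quasi-likelihood test), the largest difference of any member in the fit. NCU09147 had 6.23, 4.72, 3.08 and 2.80 CPM in Δdim-5 and 51.8, 47.5, 74.8 and 73.1 CPM in ΔLGIIK9het25, against 1.63, 0.140, 0.885 and 0 CPM in WT. Again the mutants were widely apart, by -3.81 on the log2 scale (SE 0.483, adjusted p = 0.000164, edgeR's quasi-likelihood test).

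NCU04547 had 2.20, 3.31, 2.47 and 2.88 CPM in Δdim-5 and 20.2, 15.8, 18.1 and 28.7 CPM in ΔLGIIK9het25, against 0.272, 0.140, 0.241 and 0.828 CPM in WT. NCU02593 had 2.66, 0.985, 1.51 and 2.51 CPM in Δdim-5 and 20.01, 11.3, 17.6 and 20.1 CPM in ΔLGIIK9het25, against 0.363, 0.140, 0 and 0.828 CPM in WT. In both genes no library of one mutant reached the range of the other, and their log2 fold changes were -2.85 (SE 0.333) for NCU04547 and -3.09 (SE 0.503) for NCU02593. NCU00118 had 4.94, 7.11, 5.09 and 3.59 CPM in Δdim-5 and 21.2, 38.5, 15.0 and 24.1 CPM in ΔLGIIK9het25, against 1.45, 1.40, 0.563 and 0.355 CPM in WT. It too had separate ranges in the mutants, with a difference of -2.15 (log2, SE 0.377).

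The other 7 lower members changed less. NCU01462, with no WT count, had 1.10, 0.845, 0.454 and 0.418 CPM in Δdim-5 and 2.52, 3.17, 2.43 and 1.89 CPM in ΔLGIIK9het25. NCU01325, with 1 WT count, had a mean of 0.833 ± 0.370 CPM in Δdim-5 and 2.82 ± 0.554 CPM in ΔLGIIK9het25 (SD, n = 4 each). Both were thus nearly absent from WT and higher in ΔLGIIK9het25 in each library than in any Δdim-5 library. NCU17269, NCU17268, NCU07752, NCU02023 and NCU07410 had log2 fold changes of -1.94, -1.59, -1.59, -1.33 and -1.09.

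**Figure D3:**
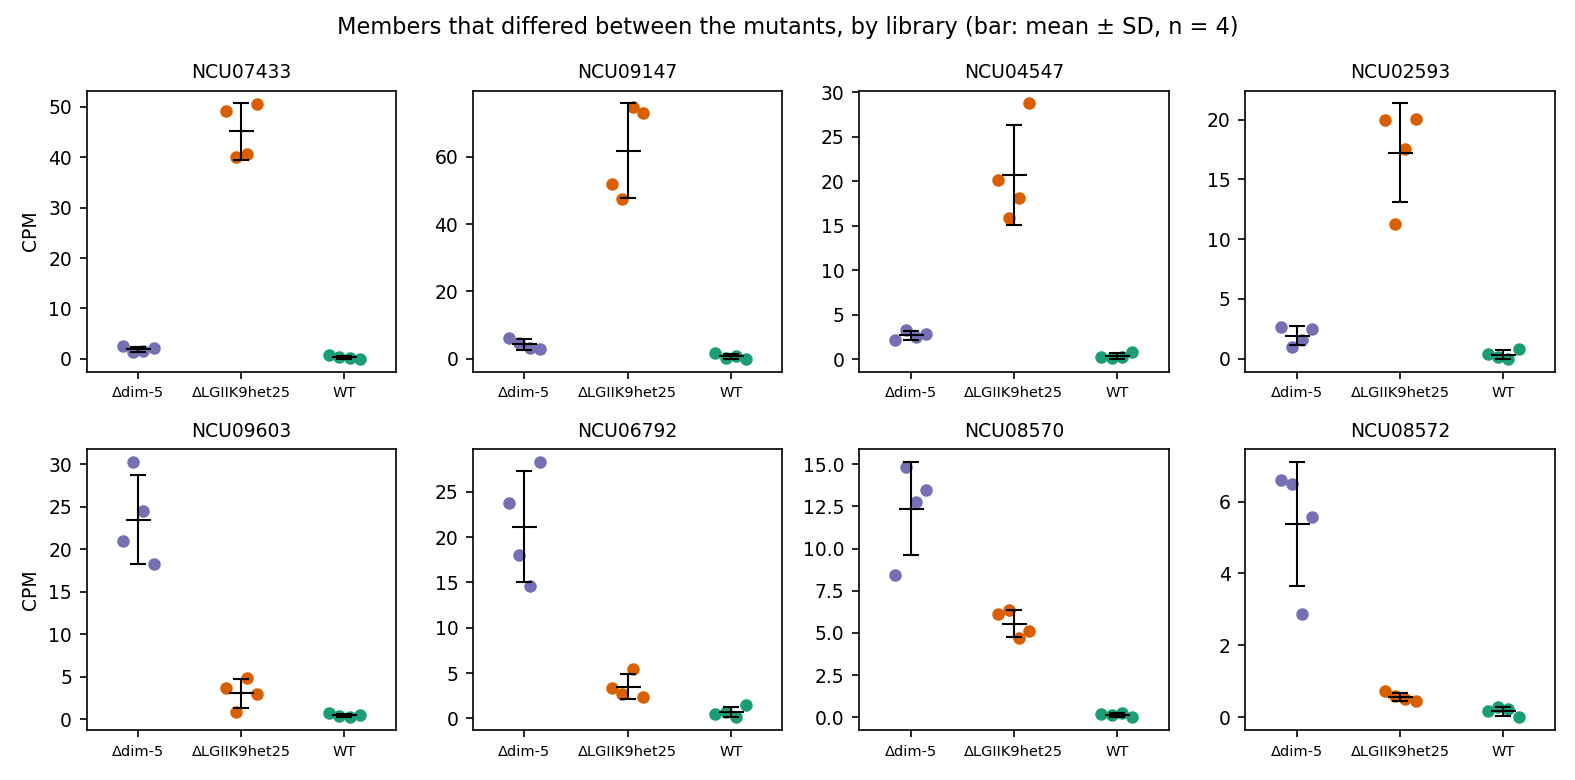
CPM of 8 members called between the mutants, by library (points), with mean and SD (n = 4) as bars, for Δdim-5, ΔLGIIK9het25 and WT from left to right. The top row holds NCU07433, NCU09147, NCU04547 and NCU02593, where ΔLGIIK9het25 libraries stand above all others, and the bottom row NCU09603, NCU06792, NCU08570 and NCU08572, where Δdim-5 libraries do.

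Among the members higher in Δdim-5, NCU09603 had 21.0, 30.3, 24.5 and 18.2 CPM in Δdim-5 and 3.66, 0.822, 4.86 and 2.94 CPM in ΔLGIIK9het25, against 0.725, 0.419, 0.241 and 0.473 CPM in WT. NCU06792 had 23.7, 18.02, 14.6 and 28.3 CPM in Δdim-5 and 3.33, 2.70, 5.49 and 2.41 CPM in ΔLGIIK9het25, against 0.453, 0.698, 0.161 and 1.54 CPM in WT. In these genes every Δdim-5 library stood well above every ΔLGIIK9het25 library, with log2 fold changes of 2.98 (SE 0.415) for NCU09603 and 2.66 (SE 0.436) for NCU06792. NCU08572 had 6.59, 6.47, 2.87 and 5.56 CPM in Δdim-5 and 0.732, 0.587, 0.499 and 0.453 CPM in ΔLGIIK9het25, against 0.181, 0.279, 0.241 and 0 CPM in WT. It only narrowly met the fold condition in ΔLGIIK9het25, and its rise of 3.31 on the log2 scale in Δdim-5 over ΔLGIIK9het25 (SE 0.447, adjusted p = 0.000272, edgeR's quasi-likelihood test) was the highest of the members in the fit.

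NCU10684 had 7.14, 7.60, 6.05 and 7.06 CPM in Δdim-5 and 1.38, 2.58, 2.56 and 1.36 CPM in ΔLGIIK9het25, against 0.237 to 0.453 CPM in WT, and the mutants differed by 1.91 (log2, SE 0.295). NCU11054 averaged 4.35 ± 0.946 CPM in Δdim-5, 1.55 ± 0.463 CPM in ΔLGIIK9het25 and 0.241 ± 0.164 CPM in WT (SD, n = 4 each). In both genes the mutants did not overlap, and Δdim-5 was the higher of them. NCU03121 had 8.24, 21.7, 9.18 and 9.95 CPM in Δdim-5 and 3.24 to 6.34 CPM in ΔLGIIK9het25, against 0.558 to 1.27 CPM in WT, so that 1 Δdim-5 library stood far above the other 3. NCU00208 had 2.20, 3.94, 0.605 and 4.18 CPM in Δdim-5 and 0.244, 0.939, 0.686 and 0.302 CPM in ΔLGIIK9het25, with 2 counts in WT. Its mutants overlapped, and it was called with a difference of 2.42 (log2, SE 0.669, adjusted p = 0.0256, edgeR's quasi-likelihood test).

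The calls were not all equally firm. Of the 22, 12 kept the call under every other scaling, tool, filter and left-out library tried: NCU07433, NCU09147, NCU02593, NCU04547 and NCU00118, which were lower in Δdim-5, and NCU08572, NCU09603, NCU06792, NCU10684, gh11-2, NCU03121 and NCU08570, which were higher. NCU17269 lost its call without Δdim-5 replicate 4. NCU11054 lost its call without ΔLGIIK9het25 replicate 1 or 4 or Δdim-5 replicate 2, and NCU01325 without ΔLGIIK9het25 replicate 3 or 4 or Δdim-5 replicate 3. The other 7, NCU00208, NCU01462, NCU02023, NCU07410, NCU07752, NCU08569 and NCU17268, each lost it when a single library was left out, for any of 5 or 6 of the 8 mutant libraries.

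For the 40 members not called, the log2 fold change ran from -2.72 to 2.76 with an SE of 0.275 to 0.931, so that equal levels in the mutants are not shown. NCU11340 and NCU07820 stand at the ends of that range with 1 library each far from its replicates. NCU11340 had 0.733, 0.985, 0.807 and 0.502 CPM in Δdim-5 and 1.46, 17.6, 1.31 and 1.81 CPM in ΔLGIIK9het25, against 0.181, 0, 0 and 0.473 CPM in WT. NCU07820 had 1.01, 1.06, 0.605 and 14.5 CPM in Δdim-5 and 0.813, 0.939, 0.374 and 0.528 CPM in ΔLGIIK9het25, against 0.363, 0, 0.0805 and 0.118 CPM in WT. NCU04030 had 1.46 to 6.19 CPM in Δdim-5 and 3.33, 19.6, 26.9 and 4.15 CPM in ΔLGIIK9het25, against 0 to 0.828 CPM in WT, so that its ΔLGIIK9het25 libraries fell into a high and a low pair. Over all members, the coefficient of variation between libraries of a strain had a median of 36.1% in Δdim-5 and 32.5% in ΔLGIIK9het25, against 102% in WT, where single reads decide the values.

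Libraries of a strain differed in how often they gave its highest value. Δdim-5 replicate 2 was highest of its strain for 31 of the 65 members, with 6.41% of its reads outside genes. ΔLGIIK9het25 replicate 2 was highest for 27, with 31.8% of its reads outside genes. In WT, 13, 26, 17 and 24 members had no count in replicates 1 to 4, and the 26 were in replicate 2, which had the lowest total and 36.8% of its reads outside genes. With a covariate for reads outside genes, 17 members were called between the mutants in place of 22, with 9 higher and 8 lower, and NCU01462, NCU07410, NCU07752, NCU08569 and NCU17268 lost their calls.

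Some members lay beside each other in the gene order of the RefSeq table. Of the 65, 14 formed 7 pairs of direct neighbours, 21.5% of the members, whereas 2.28% of the other near-silent genes and 1.31% of all counted genes had a member as neighbour. Pairs lay on linkage groups II and III, with 2 on IV and 3 on VII, and no run was longer than 2. In 5 pairs both genes had their higher mean in the same mutant, and in 2 pairs they did not. A further 3 pairs had 1 gene between them, which brought the number of members in or near a pair to 19. Without strand in the counting, overlapping transcripts of neighbours cannot be told apart, so the genes of a pair may not be independent.

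On linkage group III, NCU08569 stood next to NCU08570 and was also higher in Δdim-5. It had 3.20, 10.6, 6.66 and 5.68 CPM in Δdim-5 and 4.23, 1.76, 1.68 and 1.89 CPM in ΔLGIIK9het25, against 0.725, 0.558, 0.322 and 0.118 CPM in WT, and the mutants differed by 1.52 (log2, SE 0.457). On the other side of NCU08570 come NCU08571 and then NCU08572, so that 3 members within 4 genes were called higher in Δdim-5. NCU08571 itself averaged 2.02 CPM in Δdim-5 and 0.234 CPM in ΔLGIIK9het25, against 1 count in WT, and missed the level condition in ΔLGIIK9het25.

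On linkage group VII, NCU17268 and NCU17269 were both lower in Δdim-5. NCU17268 had 1.28, 3.38, 2.27 and 2.55 CPM in Δdim-5 and 9.43, 10.8, 4.61 and 5.81 CPM in ΔLGIIK9het25, against 0.181, 0, 0.885 and 0.355 CPM in WT. NCU17269 had 2.47, 4.22, 1.26 and 1.71 CPM in Δdim-5 and 9.84, 14.3, 7.86 and 7.47 CPM in ΔLGIIK9het25, against 0.272, 0.140, 0.724 and 0 CPM in WT. In both, every ΔLGIIK9het25 library stood above every Δdim-5 library. On linkage group II, NCU06793 had 1.83, 2.04, 1.87 and 2.93 CPM in Δdim-5 and 0.569, 1.06, 1.06 and 1.28 CPM in ΔLGIIK9het25, with no WT count. As in its neighbour NCU06792, each Δdim-5 library stood above each ΔLGIIK9het25 library, but the difference of 1.20 (log2, SE 0.391) was not called (adjusted p = 0.0634, edgeR's quasi-likelihood test).

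The other pairs were not called between the mutants in either gene. NCU16805 had 3.48 to 7.88 CPM in Δdim-5 and 6.23 to 24.8 CPM in ΔLGIIK9het25, against 0.279 to 1.42 CPM in WT. Its neighbour NCU04490 had 0.151 to 1.01 CPM in Δdim-5 and 0.499 to 1.55 CPM in ΔLGIIK9het25, with 1 count in WT. The pairs NCU08830 with NCU16876, NCU09280 with NCU17157 and NCU06163 with NCU17202 had log2 fold changes between -0.33 and 0.30.

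**Figure D4:**
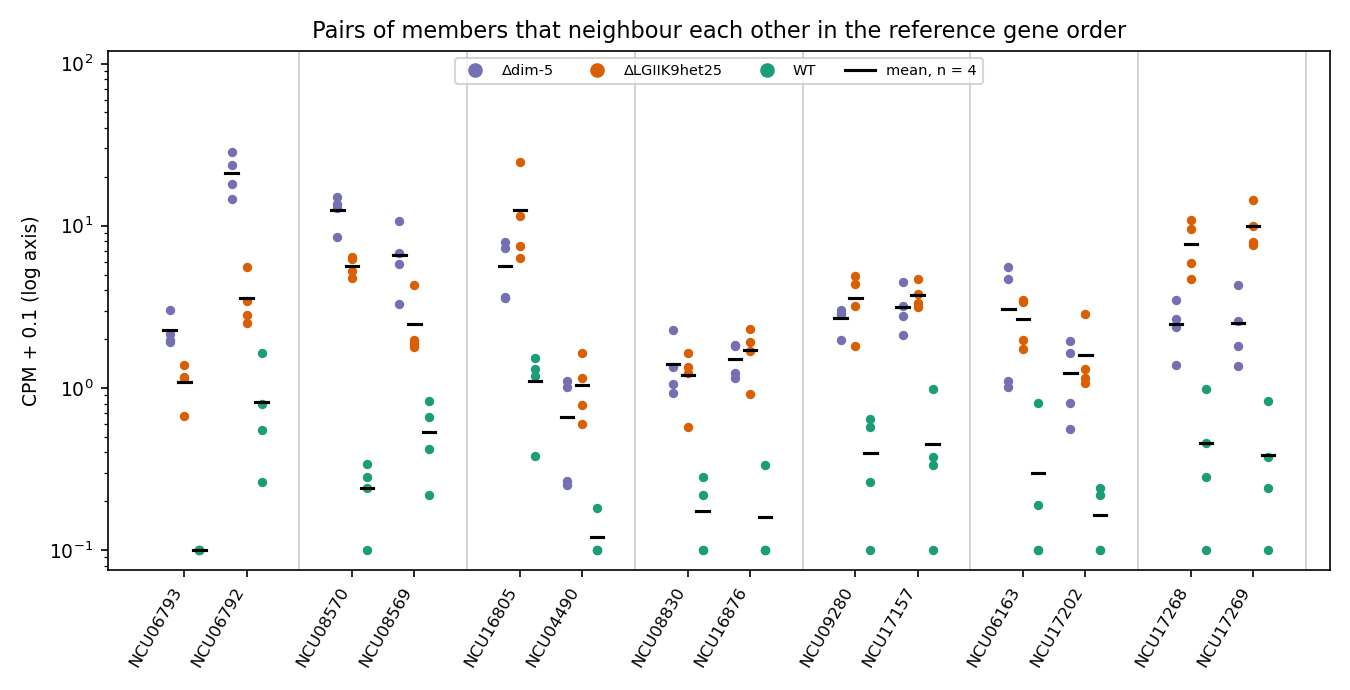
CPM + 0.1 on a log axis of the 14 members that neighbour another member, by library (points) with the strain mean (bar, n = 4), pair by pair, with Δdim-5, ΔLGIIK9het25 and WT from left to right for each gene. The pair NCU08570 and NCU08569 is higher in Δdim-5 in both genes and the pair NCU17268 and NCU17269 lower in both, while points at 0.1 are libraries without a count.

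Beside the members lay 113 genes that are not members, of which 93 were in the fit. In Δdim-5, 24 of them, 25.8%, were called higher than in WT, and in ΔLGIIK9het25, 8 of them, 8.60%, were, against 9% and 3.08% of all genes in the fit. These shares are not of like genes, since 39 of the 113 were themselves near-silent in WT. A gene near-silent in WT can pass the count filter through a mutant where it is high, which favours a call. No conclusion about the neighbours is drawn from the shares. NCU09604, beside NCU09603, averaged 804 CPM in Δdim-5 and 195 CPM in ΔLGIIK9het25, against 10.1 CPM in WT, and was called higher than WT in each mutant. Like its neighbour it had its higher mean in Δdim-5, but the difference of 2.13 (log2, SE 0.759) between the mutants was not called (adjusted p = 0.0748, edgeR's quasi-likelihood test). NCU02022, beside NCU02023, averaged 9.87 CPM in Δdim-5 and 25.6 CPM in ΔLGIIK9het25, against 6.01 CPM in WT, and both it and the member were lower in Δdim-5 than in ΔLGIIK9het25. Other neighbours went against their member. NCU04546 (log2 1.31) and NCU07411 (0.98) were called higher in Δdim-5, beside the lower members NCU04547 and NCU07410. Between the mutants, 14 neighbours (15.1%) were called higher in Δdim-5 and 6 (6.45%) lower, against 8.83% and 7.92% of all genes in the fit. Nothing is read from these shares either. A near-silent gene stood next to 60% of the members, 52.7% of the other near-silent genes and 30.6% of all counted genes, so near-silent genes lay together whether members or not.

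Every linkage group held members. Linkage group I held 14, II 11, III and IV 9 each, V and VII 10 each and VI 2, which ranged from 0.202% of the counted genes of VI to 1.07% of those of II. Between the mutants, 4 members on II were called higher in Δdim-5 and 0 lower, and on III 4 were called higher and 2 lower. There were 1 higher and 4 lower on I, 1 higher and 3 lower on V and 0 higher and 3 lower on VII. None on IV or VI was called. The shares called among all genes of each group were not computed, so no direction is read from these few calls. Within 100 genes of a linkage group end lay 9 members, 13.8%, against 21.9% of the other near-silent genes and 14.4% of all counted genes, and within 20 genes of an end lay none, against 2.87% of the other near-silent genes and 2.88% of all.

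**Figure D5:**
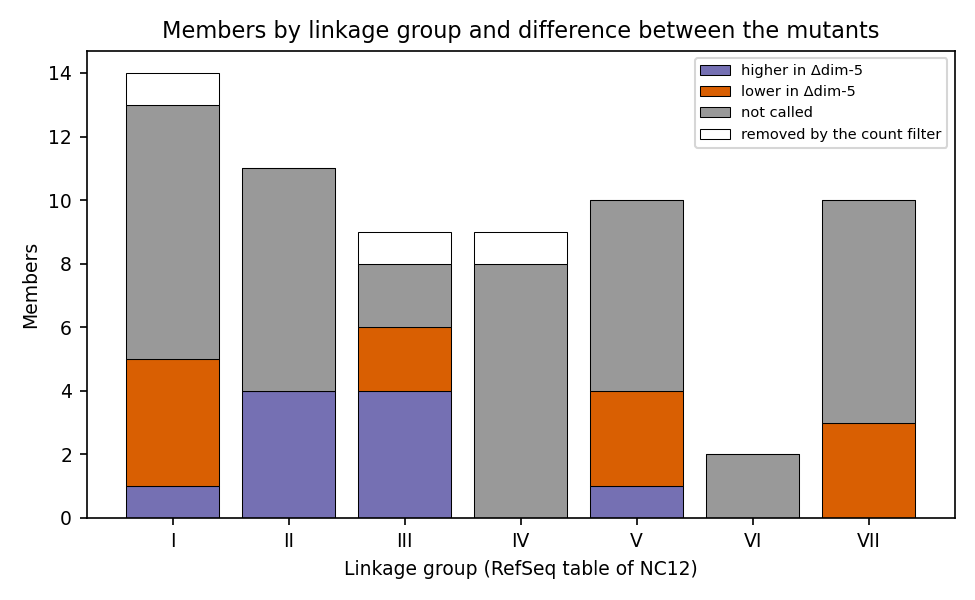
Number of members on each linkage group of the RefSeq table of NC12, divided into those called higher in Δdim-5 than in ΔLGIIK9het25, called lower, not called, and removed by the count filter. Linkage group II has 4 members higher in Δdim-5 and none lower, VII has 3 lower and none higher, and VI has 2 members.

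The rule set the members apart from the other near-silent genes by level. The 1710 genes that had a WT mean under 1 CPM but were no members had a median of 0.366 CPM in Δdim-5 and 0.249 CPM in ΔLGIIK9het25, against 0.216 CPM in WT, and 103 of them had no count in any library. Genes of the silencing machinery were listed too. Of 15 listed genes for H3K9 methylation and DNA methylation, 12 were found, and dim-5 was the single one called in Δdim-5 against WT by edgeR's quasi-likelihood test, with 2 at an unadjusted p under 0.05, 2 called by DESeq2 and 1 by limma-voom. In Δdim-5 against ΔLGIIK9het25, edgeR and limma-voom each called dim-5 alone of the 12, with 4 at an unadjusted p under 0.05 in edgeR, and DESeq2 called 3, while edgeR called 8.83% of all genes higher and 7.92% lower. In ΔLGIIK9het25 against WT, edgeR, DESeq2 and limma-voom each called 0 of the 12, with 0 at an unadjusted p under 0.05. Of 8 listed genes for Polycomb and H3K36 methylation, 3 were found, and all 3 tools called 0 in each comparison, with 0 at an unadjusted p under 0.05 in edgeR. None of the listed genes was a member.

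Of the markers of other cell types, some of sexual tissue were called between the strains. The 12 listed genes of sexual tissue had summed levels of 301 to 362 CPM in Δdim-5 and 432 to 825 CPM in ΔLGIIK9het25, against 389 to 620 CPM in WT, and none was at 0 in a whole strain. The pheromone gene mfa-1 averaged 3.61 ± 0.751 CPM in Δdim-5 and 24.5 ± 5.94 CPM in ΔLGIIK9het25, against 4.58 ± 3.16 CPM in WT (SD, n = 4 each). With mfa-1, the pheromone receptor gene pre-1 and app were called higher in ΔLGIIK9het25 than in WT, and these and asd-1 were called lower in Δdim-5 than in ΔLGIIK9het25, by edgeR's quasi-likelihood test. In ΔLGIIK9het25 against WT, limma-voom called mfa-1 and pre-1 alone. Among the 7 listed genes of conidia, the asexual spores, the sum ran from 472 to 14871 CPM in Δdim-5 and from 166 to 1571 CPM in ΔLGIIK9het25, against 369 to 2682 CPM in WT. No conidial or hyphal marker was called in any comparison by edgeR's quasi-likelihood test, with at most 2 conidial and 1 hyphal gene at an unadjusted p under 0.05, and DESeq2 called 1 conidial gene higher in Δdim-5 than in WT while limma-voom called 0. The 4 sexual tissue genes called between the mutants were lower in Δdim-5, and the rest of the 12 listed were not called. Over all genes in the fit, 7.92% were called lower in Δdim-5 than in ΔLGIIK9het25, and 3.08% higher in ΔLGIIK9het25 than in WT. No excess is read from so few listed genes. Δdim-5 also carries another mating type label, mat x, where the other strains are mat A. The mating type and the dim-5 deletion cannot be told apart in these differences. Of the members, 12 were called lower and 10 higher. The part of sexual tissue in the members' levels was not tested.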

How the data were processed

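Polyadenylated RNA of 12 libraries from 3 strains was measured. Raw gene counts, 1 table a library, are what the authors deposited, per the labels. The submitters' processing notes name HISAT2, HTSeq and DESeq2, and the names of the deposited tables say that reads were counted without strand, whereas the kit was directional. Their versions and options, the build and the annotation were not given in the sources used here. Reads of overlapping or antisense genes, and of genes with near-identical copies, are therefore uncertain. Library totals exclude the 5 closing entries, which name no gene. Reads outside genes took 3.62% to 36.8% of a library's entries.

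CPM was computed from the counts and the plain library totals, which ranged from 7164944 to 23925695. Tests ran in edgeR 4.0.16 under R 4.3.3 (TMM factors, filterByExpr by strain, quasi-likelihood F-test, two-sided) on all 12 libraries with 1 mean per strain, adjusted by Benjamini-Hochberg over 8496 genes and called at an adjusted p under 0.05. The script was tested on simulated data. Counts of replicates differed by more than sampling noise in each pair, so none was treated as a library deposited more than once. That does not show separate cultures. DESeq2 1.42.0 and limma-voom (limma 3.58.1) served as alternatives. Exact 95% intervals and the floor of 3 counts cover counting error alone, since reads are not independent molecules. The members, gene lists and tests were chosen with earlier results of these data known.

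Named were the 10 members with the highest mean CPM in the mutants, the 5 with the largest and the 5 with the smallest ratio of the lower mutant mean to WT, the 5 most higher and the 5 most lower between the mutants, members with a symbol or a neighbouring member, and the genes nearest to each threshold. Other members and neighbours named were added after their values were seen. Symbols, linkage groups and gene order come from the RefSeq table of assembly NC12, of which no coordinates are printed. Sequences and product names of the members were not analysed here. Alternatives were RLE and upper-quartile factors, plain totals, no filter, a fit of only the compared strains, thinning to 7164944 counts, an adjusted p under 0.01, a covariate for reads outside genes, a replicate block, and each library left out in turn.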

Additional observations from a re-analysis of the deposited data

Results flagged for a closer look

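In groups of 4 libraries, a value was set apart by Dixon's test, which divides the gap to its nearest neighbour by the range of the group and was read at the 95% limit. For genes the test was run on log2(CPM + 0.5), and for the sum and median of the members on CPM. Values are printed in CPM, on which some of the genes would not pass the limit. Of 108 groups examined, 11 passed it, and chance alone gives about 1 in 20. In 3 of the 11, all in WT, the other libraries had no count, which sets the ratio by construction. In Δdim-5 replicate 4, NCU07820 had 14.5 CPM (others 0.605 to 1.06) and NCU09280 had 1.88 CPM (others 2.74 to 2.93). In ΔLGIIK9het25 replicate 2, NCU11340 had 17.6 CPM (others 1.31 to 1.81), NCU08073 had 0.704 CPM (others 1.06) and the sum over the members was 399 CPM (others 354 to 358). NCU08569 had 4.23 CPM in ΔLGIIK9het25 replicate 1 (others 1.68 to 1.89). The gene gh11-2 (NCU07225) had 2.06 CPM in ΔLGIIK9het25 replicate 3 (others 1.71 to 1.76). Of the WT values, all rest on few reads. In WT replicate 1, NCU00208 had 0.181 CPM (others 0) and NCU08073 had 0.0907 CPM (others 0.355 to 0.419). NCU04490 had 0.0805 CPM in WT replicate 3 and NCU16876 had 0.237 CPM in WT replicate 4 (others 0 for both genes).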

How the results depend on the processing

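None of the 14 named members called between the mutants changed sign, while 9 of 20 not called did in at least 1 setting. Plain library totals turned the split of calls for Δdim-5 against WT from 765 higher and 640 lower to 652 higher and 756 lower, and the split between the mutants as given above; that split also turned without ΔLGIIK9het25 replicate 3 (455 higher, 545 lower) or 4 (439 and 500) or Δdim-5 replicate 2 (527 and 579). At an adjusted p under 0.01, calls fell to 637 of 1423 between the mutants, 687 of 1405 for Δdim-5 against WT and 154 of 367 for ΔLGIIK9het25 against WT, which DESeq2 put at 617, and members called between the mutants to 11 of 22 (6 higher, 5 lower). Without 1 library, calls ranged from 939 to 1452 between the mutants, 1061 to 1501 for Δdim-5 against WT and 216 to 402 for ΔLGIIK9het25 against WT, lowest without WT replicate 4 (221 and 244 without ΔLGIIK9het25 replicates 3 and 4). Members called ranged from 13 to 24 (7 to 11 higher, 6 to 14 lower), and members found by the rule from 64 to 88. Without the condition on overlap the rule found 121 genes, with scaled totals 67 (TMM) and 69 (RLE), and after thinning 64, of which 51 were among the 65. Replicate numbers, taken from the titles, differ from those in the file names for some libraries and were not taken to pair the samples: correlations of same-numbered libraries ran from -0.19 to 0.55, with 3 of 12 over 0.1 and 3 libraries closest to their own number, although the share of reads outside genes fell in the order 2, 1, 3, 4 in both ΔLGIIK9het25 and WT. With the number as a block, 18 members were called (9 higher, 9 lower), and 1467, 1504 and 371 genes in the 3 comparisons. Of the members not called, NCU01311, NCU06793, NCU07820 and NCU11340 were called in some settings. Depth limits WT values: 14 members had under 3 WT counts.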
